A study of Mus musculus with 6 samples.

Results

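Monocytes are blood phagocytes that arise in the bone marrow, circulate and enter tissues, where many become macrophages. Their development depends on signalling through the receptor Csf1r and on transcription factors such as PU.1 and Klf4, and their abundant products include lysozyme, which cleaves bacterial cell walls. The genes described here are 9 monocyte lineage genes of mouse blood, namely the growth factor receptor Csf1r, the lysozymes Lyz1 and Lyz2, the coagulation factor XIII A subunit F13a1, the transcription factor Klf4, the membrane proteins Ms4a6c and Ms4a6d of the MS4A family, the pore-forming protein Mpeg1 and the secreted matrix protein Tgfbi. They were chosen by name, and every array probe whose accession matched one of them was taken. This gave 11 probes for 8 of the 9 genes, out of 41174 probes, 23374 of them matched to 16535 gene symbols. No probe matched Mpeg1 by accession, so its expression is not analysed here.

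The blood came from male C57BL/6J mice, an inbred strain, aged 9 weeks. The food-restricted (FR) group received 50% FR of CE-2 chow for 2 weeks, and the control group a normal diet, with 8 mice in each. Blood was drawn under anaesthesia by way of the heart's right ventricle and frozen, and the samples of a group were pooled. Pool 1 held mice 1 to 8, pool 2 mice 1 to 4 and pool 3 mice 5 to 8, so pools 2 and 3 are the 2 replicates and pool 1 measured the same mice again. FR and control RNA of a pool were hybridised together on 2 Agilent arrays with the dyes Cy5 and Cy3 exchanged, 6 arrays in all. A pool gives 1 value for its mice, so differences between single mice were not measured. In whole blood, fewer cells of a type and less RNA per cell cannot be told apart.

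Between 20.0% and 55.0% of probes per array were well above background in FR, and between 36.7% and 61.6% in control. No probe spot was saturated, and the number of pools limits the precision. Ratios are log2 of FR over control, centred by loess on the bulk of probes at each brightness, and given as the mean ± SD of pools 2 and 3 (n = 2). Erythroid genes were the brightest of the marker lists, with the summed processed signal of 21 erythroid markers between 3210000 and 5840000 in FR and between 2670000 and 5350000 in control. The globin gene Hba-a1 was above background in both diets on the 4 arrays of pools 2 and 3.

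Of the 9 genes, 7 entered the test and each of these was lower in FR, against 24.5% of the 11648 tested features called lower, 3.76% called higher and 28.3% called in either direction (limma, Benjamini-Hochberg adjusted p under 0.05). The decrease was 9.41-fold for Lyz2, 6.76-fold for Lyz1, 2.73-fold for F13a1, 2.33-fold for Klf4, 2.30-fold for Tgfbi, 2.14-fold for Csf1r and at least 1.27-fold for Ms4a6c. To be tested, a gene had to be well above background in at least 1 diet across the 4 arrays of those pools. Lyz2, Lyz1, F13a1 and Tgfbi met this in both diets. Klf4, Ms4a6c and the brightest probe of Csf1r met it in control alone, so their place in the test already depends on a high control signal. A dimmer Csf1r probe met it in both diets. At its brightest probe each of the 7 was lower on all 6 arrays, as were 30.0% of tested features. The other Csf1r probes were lower on 2 and 5 of 6 arrays, at 0.15 and -0.07, and neither passed. With only 2 pools, genes of similar brightness share one variance in the fit, which makes its p-values too small for single genes. A stricter adjusted p therefore borrows 5.41 prior degrees of freedom from a fit on 3 pools. By this stricter p 6 of the 7 genes passed, Ms4a6c being the exception, against 15.5% of features lower and 1.55% higher.

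**Figure D1:**
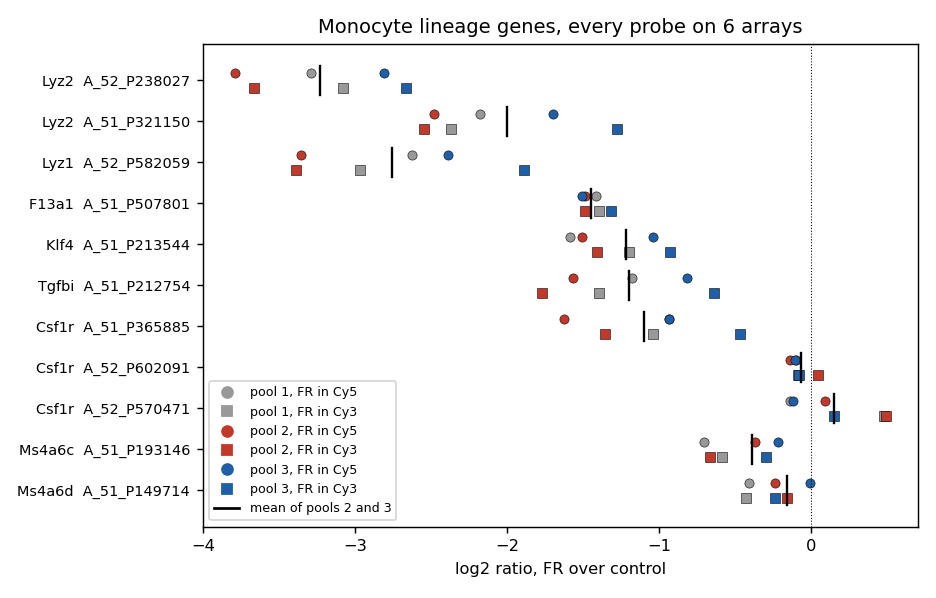
Log2 ratio of FR over control (horizontal axis) for each of the 11 probes, with 1 point per array coloured by pool and shaped by the dye of FR, and a black line at the mean of pools 2 and 3. The Lyz2 and Lyz1 probes lie farthest to the left, and of the 3 Csf1r probes 1 lies left of 0 on all 6 arrays while the others straddle it.

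Mouse Lyz2 is the lysozyme of monocytes, macrophages and neutrophils, and Lyz1 is best known from Paneth cells of the gut, with expression in myeloid cells too. The genes lie side by side on chromosome 10, their starts 10596 bases apart, and their upstream regions are shown because they resemble each other and carry the same match to a myeloid factor's motif. The sequences are from RefSeq (GRCm38.p6), 250 bases before the start of the gene, on the minus strand, at chr10:117282273-117282522 for Lyz2 and chr10:117292869-117293118 for Lyz1. Capitals mark AGGAAGT, the core bound by PU.1, found here as its reverse complement ACTTCCT.
Lyz2: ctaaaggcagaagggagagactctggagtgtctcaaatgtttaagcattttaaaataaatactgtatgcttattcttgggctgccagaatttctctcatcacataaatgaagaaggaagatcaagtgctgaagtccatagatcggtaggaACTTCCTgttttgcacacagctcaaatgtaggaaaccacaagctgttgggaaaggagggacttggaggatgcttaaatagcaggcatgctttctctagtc
Lyz1: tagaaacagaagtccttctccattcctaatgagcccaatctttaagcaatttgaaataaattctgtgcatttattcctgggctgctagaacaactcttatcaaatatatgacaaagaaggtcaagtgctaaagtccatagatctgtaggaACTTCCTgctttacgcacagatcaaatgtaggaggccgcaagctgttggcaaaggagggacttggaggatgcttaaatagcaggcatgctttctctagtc
Without gaps, 152 of the 250 bases were identical (60.8%), and 92 of the 100 nearest the start, with a longest identical run of 50 bases. Both matches begin 100 bases before the start.

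The brighter Lyz2 probe (A_52_P238027) had FR signals of 25300 and 18500 in pool 2 and 21100 and 17600 in pool 3, against control signals of 340000 and 244000 in pool 2 and 145000 and 136000 in pool 3. These are the processed signals of the 2 arrays of each pool, on a linear scale. The FR signals lay close together in both pools, while control was brighter in pool 2 than in pool 3. The log2 ratio was -3.73 in pool 2 and -2.74 in pool 3, and -3.18 in pool 1, with a mean of -3.23 ± 0.70 (limma adjusted p = 8.66e-81, stricter adjusted p = 0.00162). Lyz2 was the gene with the 6th lowest ratio among 7905 named genes tested.

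A second Lyz2 probe (A_51_P321150) was dimmer and fell less. Its FR signals were 903 and 739 in pool 2 and 760 and 919 in pool 3, against control signals of 6800 and 6350 in pool 2 and 3130 and 3070 in pool 3. Its log2 ratio of -2.0 ± 0.72, or 4.01-fold, lay above that of the brighter probe on each of the 6 arrays, by 0.71 to 1.39. Both probes passed when every probe was tested on its own (limma adjusted p = 1.92e-36 for the dimmer one, stricter adjusted p = 0.00489). The direction was thus the same at both probes and the size differed.

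Lyz1 (A_52_P582059) had FR signals of 3560 and 3220 in pool 2 and 3690 and 4580 in pool 3, against control signals of 40900 and 39800 in pool 2 and 19900 and 19100 in pool 3. Here too the control signals were higher in pool 2 than in pool 3. The log2 ratio was -3.37 in pool 2, -2.14 in pool 3 and -2.80 in pool 1, with a mean of -2.76 ± 0.87 (limma adjusted p = 3.23e-75, stricter adjusted p = 0.00298). Lyz1 lay above the brighter Lyz2 probe by 0.11 to 0.78 on the 6 arrays, or 0.48 ± 0.17 over pools 2 and 3. The transcripts are close copies, and the letters of the probes were not used here, so a probe may read both genes and the 3 lysozyme probes are not independent of each other. Neither of the 2 tested markers of Paneth and intestinal cells passed (Defa3 at -0.09 ± 0.08 and the protease Mmp7 at 0.08 ± 0.26).

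**Figure D2:**
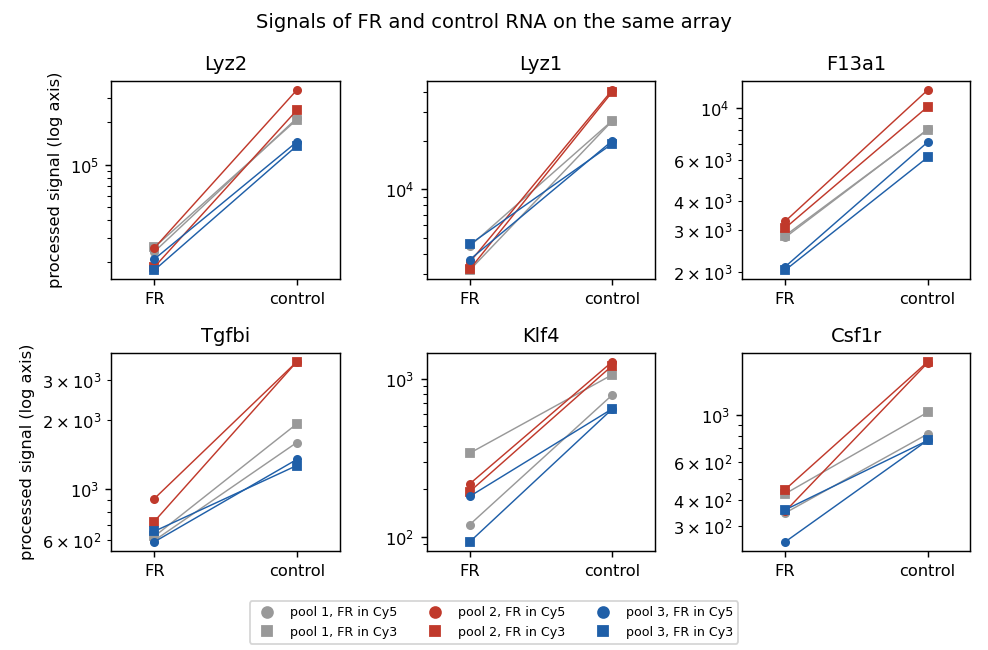
Processed signal (log axis) of 6 genes in FR and control RNA, 1 line per array joining its 2 channels, coloured by pool and shaped by the dye of FR. Every line rises toward control, and for Lyz2, Lyz1, Tgfbi and Csf1r the spread between pools is wider in control than in FR.

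Csf1r, the receptor for the growth factors CSF1 and IL-34 on monocytes and macrophages, was read by 3 probes that gave different answers. The probe that stands for the gene (A_51_P365885, the brightest) had FR signals of 352 and 446 in pool 2 and 253 and 358 in pool 3, against control signals of 1760 and 1780 in pool 2 and 761 and 759 in pool 3. All 6 arrays were lower in FR, and the log2 ratio was -1.49 in pool 2 and -0.70 in pool 3, with a mean of -1.10 ± 0.56 (limma adjusted p = 5.77e-11, stricter adjusted p = 0.0181). FR was above background on 3 of 4 arrays. The other probes with the same accession were at 0.15 ± 0.19 (A_52_P570471) and -0.07 ± 0.04 (A_52_P602091), and neither passed (limma adjusted p = 0.475 and 0.695). On the first of these FR was lower on 2 of 6 arrays. With both diets required above background the first became the gene's probe, and over the mean of the 3 probes the ratio was -0.34 (adjusted p = 0.0537), so the Csf1r call rests on 1 probe. It was also lost when channels were not paired within arrays (adjusted p = 0.0522).

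Klf4, a zinc finger factor needed in mice for the monocytes that express Ly6C, had FR signals of 217 and 194 in pool 2 and 181 and 93.4 in pool 3. Its control signals were 1280 and 1210 in pool 2 and 646 and 644 in pool 3. FR was lower on every array, and was above background on 2 of the 4. The log2 ratio was -1.22 ± 0.34 (limma adjusted p = 6.45e-14, stricter adjusted p = 0.00679). Dim signals are compressed by the offset of 50 added in the background correction, and with Agilent's processed signals the ratio was -2.55 for Klf4, -1.84 for Csf1r and -1.63 for Ms4a6c.

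F13a1, a transglutaminase that cross-links fibrin, is made by monocytes and macrophages and by megakaryocytes, whose platelets carry it. Its FR signals were 3280 and 3070 in pool 2 and 2100 and 2030 in pool 3, against control signals of 11900 and 10100 in pool 2 and 7140 and 6150 in pool 3. The log2 ratio hardly differed between pools, at -1.49 in pool 2, -1.41 in pool 3 and -1.41 in pool 1. The mean was -1.45 ± 0.05 (limma adjusted p = 2.36e-21, stricter adjusted p = 0.00254). Platelet markers moved with it, since 17 of 21 tested were lower, 0 higher, and the list median was -0.98 (pool 2 -0.89, pool 3 -1.03). Their summed processed signal was between 294000 and 483000 in FR and between 770000 and 1110000 in control. Ppbp, a platelet chemokine, was at -2.67 ± 0.55 and the ADP receptor P2ry12 at -2.07 ± 0.32. How much of the F13a1 ratio belongs to platelets was not tested.

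Tgfbi, an extracellular matrix protein that monocytes and macrophages secrete and that TGF-beta induces, had FR signals of 910 and 724 in pool 2 and 590 and 656 in pool 3. Its control signals were 3600 and 3600 in pool 2 and 1350 and 1270 in pool 3. Control was again brighter in pool 2 than in pool 3. The log2 ratio was -1.67 in pool 2, -0.73 in pool 3 and -1.29 in pool 1, with a mean of -1.20 ± 0.67 (limma adjusted p = 2.38e-13, stricter adjusted p = 0.0186).

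Ms4a6c and Ms4a6d encode membrane-spanning proteins of myeloid cells whose gene cluster lies on chromosome 19. Ms4a6c had FR signals of 139 and 135 in pool 2 and 58.7 and 67.6 in pool 3, against control signals of 346 and 382 in pool 2 and 191 and 211 in pool 3. FR was lower on all 6 arrays. On the 4 arrays of pools 2 and 3 no FR signal was well above background, so only a bound on the decrease can be given, at least 1.27-fold on normalized signals of 6.38 in FR and 6.76 in control (log2). The bound sets FR no lower than the dimmest signal well above background on the array. The plain ratio was -0.39 ± 0.19 (limma adjusted p = 0.00225). This call was lost by the stricter adjusted p (0.066), with pool 1 standing in for pool 2 (0.0574) and when channels were not paired within arrays (0.136). Ms4a6d was above background in control on 1 of 4 arrays and in FR on 0, so it was not tested. Its log2 ratios lay between -0.43 and -0.01 on the 6 arrays.

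Of the other MS4A family members 7 were tested, and 4 were lower (57.1%, against 24.5% of all features) and 0 higher. The 4 were not above background in FR on every array, and of the 4 members tested when both diets had to be, 1 was lower. The B cell protein Ms4a1 (CD20) was at -3.48 ± 0.43, Ms4a4b, found in T cells, at -2.04 ± 0.41, Ms4a6b at -1.50 ± 0.50 and Ms4a4c at -1.14 ± 0.47. Ms4a7, a macrophage gene, and the mast cell and basophil receptor subunit Ms4a2 did not pass, at 0.20 ± 0.11 and 0.12 ± 0.23. Ms4a7 was called higher with the slide as a block (0.24, limma adjusted p = 0.0275) and with pool 1 in place of pool 3 (0.28, 0.00747). Every fit that uses pool 1 beside another pool counts some mice more than once, so its p-values are too small. In the KLF family 3 of 11 tested members other than Klf4 were lower and 0 higher. This share, 27.3%, was near the 24.5% of all tested features called lower. The 3 were Klf6 at -1.36 ± 0.22, Klf13 at -0.56 ± 0.39 and Klf3 at -0.50 ± 0.27. The last pair missed the threshold by the stricter adjusted p (0.0643 and 0.0848) and with channels not paired within arrays (0.137 and 0.301). With pool 1 in place of pool 3, 5 members were lower and 3 higher, and with both diets above background 1 was lower. None of 10 tested transglutaminases and coagulation factors and neither of 2 tested lysozyme-like genes passed. With pool 1 in place of pool 3, 1 of the first list was lower and 4 were higher, and 1 of the second was higher (Lalba, 0.20, limma adjusted p = 0.0487).

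Upstream sequences were searched for the same PU.1 core in the 7 members with an entry used here, over 8 start sites. Csf1r was left out by a filter on its chromosome and Ms4a6d had no entry, so neither was searched. Whether Csf1r carries these letters is therefore not given. AGGAAGT or its reverse complement ACTTCCT was present for Lyz2, Lyz1, Ms4a6c and F13a1, and in 7.69% of the 32851 upstream windows of the same length. Ms4a6c (chr19:11469118-11469367, plus strand) and the start of F13a1 that holds the match (chr13:37049214-37049463, minus strand) are shown with it in capitals, 17 and 36 bases before the start.
Ms4a6c: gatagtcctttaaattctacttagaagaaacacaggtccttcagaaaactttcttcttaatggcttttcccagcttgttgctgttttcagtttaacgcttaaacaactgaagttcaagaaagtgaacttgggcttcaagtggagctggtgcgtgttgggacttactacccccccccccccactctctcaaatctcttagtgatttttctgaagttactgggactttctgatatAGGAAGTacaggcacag
F13a1: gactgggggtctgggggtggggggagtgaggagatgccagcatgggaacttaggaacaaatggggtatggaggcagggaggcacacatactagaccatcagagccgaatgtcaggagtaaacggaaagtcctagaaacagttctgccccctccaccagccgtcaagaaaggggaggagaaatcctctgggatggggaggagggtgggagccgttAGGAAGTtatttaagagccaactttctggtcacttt
These letters were not in the windows of Klf4, Tgfbi, Mpeg1 and the other F13a1 start. The C/EBP core TTNNGNAA, or TTNCNNAA on the other strand, was found for Lyz2, Lyz1, Tgfbi, Ms4a6c and the other F13a1 start, and in 36.8% of windows. It did not overlap the PU.1 match in any of them. The KLF box CACCC or GGGTG was present for Tgfbi and the F13a1 start shown, and in 52.0% of windows. The TATA box TATAAA or TTTATA was in none of the 7 members searched, against 12.4% of windows. A match is a description of the letters, and whether any factor binds there was not measured.

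The decrease was larger in pool 2 than in pool 3 for each tested gene of the group. The median ratio of the 7 was -1.49 in pool 2, -0.98 in pool 3 and -1.40 in pool 1, while that of all tested features was 0.01, -0.03 and -0.02. The difference of pool 2 minus pool 3 ran from -1.23 for Lyz1 to -0.08 for F13a1, with a median of -0.79. A lean to pool 2 was also general, since 85.4% of the 676 features called lower by at least 2-fold (5.80% of those tested) were lower in pool 2, with a median difference of -0.44. With 1 value per pool this difference was not tested.

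**Figure D3:**
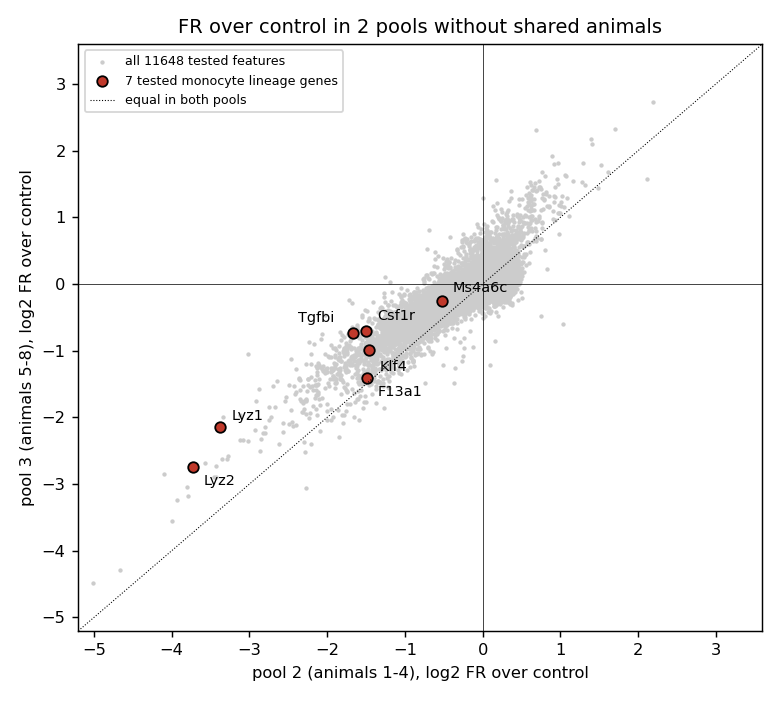
Log2 ratio of FR over control in pool 2 (horizontal axis) and pool 3 (vertical axis) for 11648 tested features (grey) and the 7 tested monocyte lineage genes (red), with a dotted line where both pools are equal. All 7 red points lie left of the dotted line, F13a1 closest to it, and Lyz2 and Lyz1 lie near the lower end of the cloud.

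Other genes of the monocyte were read from 6 lists of receptors, factors, subset markers, lysosomal and oxidase genes and surface proteins. Of their 95 tested genes 60 were lower (63.2%, against 24.5% of all features), 0 were higher, and the other 35 missed the threshold. Their median was -0.61, and by the stricter adjusted p 44 were lower. Some of the 95 also stand on lists of other cells, such as Csf3r (neutrophils) and Tcf4 (dendritic cells). B cell markers fell further, with 12 of 15 lower and a list median of -1.58. How much of the ratios of the 95 genes belongs to other cells was not tested. Many of the 95 entered through a high control signal alone. With both diets required above background, 30 of 51 genes were lower and 1 higher, against 18.5% of all features lower, and with channels not paired within arrays 28 of the 95 were lower, against 8.60% of all features. Among 24 lysosomal and oxidase genes 20 were lower (15 of 17 with both diets above background, 11 of 24 with channels not paired), with a median of -0.94. Their summed signals overlapped across arrays, at 554000 to 953000 in FR and 587000 to 930000 in control. Within an array the sum was lower in FR on 3 of the 4 arrays of pools 2 and 3. The protease cathepsin S (Ctss) was at -3.48 ± 0.88, prosaposin (Psap) at -1.70 ± 0.71, the NADPH oxidase subunit Ncf4 at -1.55 ± 0.96 and the lysosomal membrane protein Lamp2 at -1.45 ± 0.11. The granulin precursor Grn at 0.06 ± 0.23 and the glucuronidase Gusb at 0.05 ± 0.00 did not pass.

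Among 24 adaptors and surface proteins 18 were lower (10 of 14 with both diets above background, 10 of 24 with channels not paired), with a median of -0.67. Ly86, the partner of the receptor RP105, was at -2.05 ± 0.38, the ITAM adaptors Tyrobp and Fcer1g at -2.0 ± 0.68 and -1.91 ± 0.27, and the adhesion receptor Adgre5 (CD97) at -1.66 ± 0.33. Among 12 transcription factors 9 were lower, but 1 of 4 with both diets above background and 3 of 12 with channels not paired. They included Irf8, which directs monocyte development, at -2.01 ± 0.38, Nr4a1, needed in mice for non-classical monocytes, at -0.99 ± 0.38, and Irf5 at -0.89 ± 0.39, whose call was lost with channels not paired (adjusted p = 0.0597). Klf2 was at 0.23 ± 0.27 with its brightest probe but at -1.15 over the mean of its probes (adjusted p = 3.67e-13), and Cebpb at 0.12 ± 0.01 and at -0.39 (adjusted p = 0.0355) in the same way.

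Of 15 receptors and growth factors 5 were lower (33.3%, against 24.5% of all features) and 0 higher. With both diets above background 1 of 7 was lower and 1 higher, and with channels not paired 1 of 15 was lower. The interferon gamma receptor Ifngr1 was at -1.46 ± 0.52 and the GM-CSF receptor chain Csf2ra at -1.28 ± 0.79. The growth factor Csf1, the ligand of Csf1r, was at 0.09 ± 0.03 and the shared cytokine receptor chain Csf2rb at 0.04 ± 0.00, and neither passed. Ccr2, the chemokine receptor by which classical monocytes leave the marrow, had no FR signal above background and was at least 1.6-fold lower (limma adjusted p = 4e-08). With channels not paired the calls on Ccr2 and Csf2ra were lost (adjusted p = 0.111 and 0.128).

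The difference between subset marker lists was not tested. Classical monocyte markers were lower in 8 of 11, and their median was -0.72 (pool 2 -1.06, pool 3 -0.40). The count was 3 of 4 with both diets above background, 3 of 11 with channels not paired and 5 of 11 by the stricter adjusted p. Plac8, also made by lymphocytes, was at -2.99 ± 0.51 and the calcium-binding protein S100a4 at -2.03 ± 1.39, a call that ended with robust variance estimation (adjusted p = 0.494). The chitinase-like protein Chil3 did not pass, at -0.62 in pool 2 and 0.48 in pool 3. Non-classical markers were lower in 2 of 12 (16.7%, against 24.5% of all features), with a median of -0.17. The 2 were Nr4a1 and the receptor Treml4 at -0.58 ± 0.26. The count lower was 5 with the slide as a block and 6 under median centring or with pool 1 in place of pool 3. It was 1 with both diets above background and 1 with channels not paired, where Treml4 was lost (adjusted p = 0.0527). The angiotensin-converting enzyme Ace at 0.04 ± 0.13 and the integrin chain Itgal at 0.04 ± 0.14 did not pass.

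**Figure D4:**
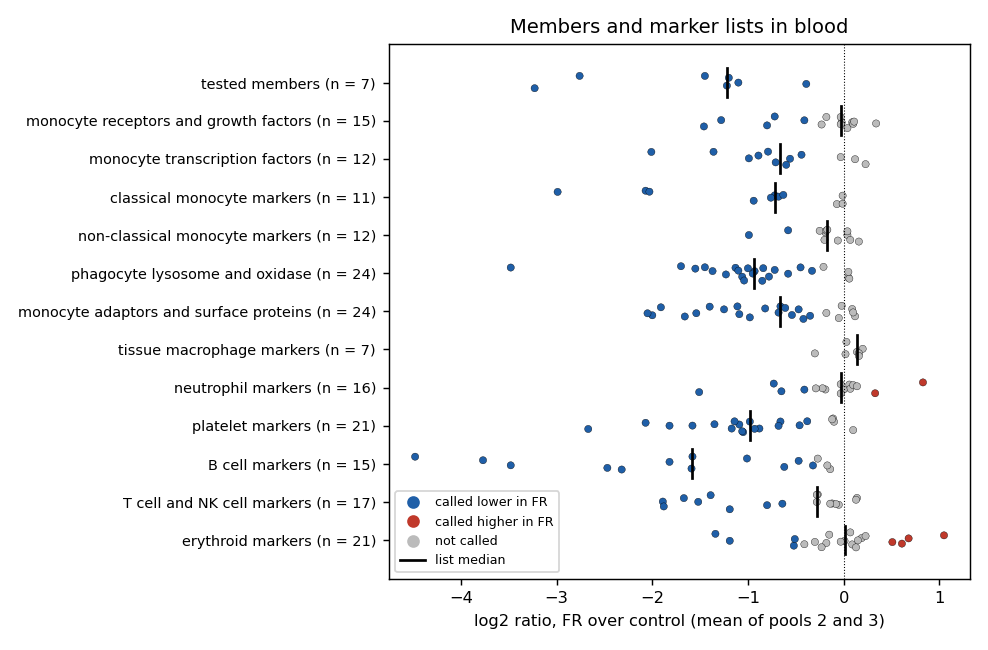
Log2 ratio of FR over control (mean of pools 2 and 3) for the 7 tested members and the tested genes of 12 lists, 1 point per gene, with list medians as black lines. Blue points were called lower in FR, red points higher and grey points neither, and the lysosomal, platelet and B cell lists lie mostly left of 0.

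Cells that share these genes were read beside them. Neutrophils make Lyz2 as well. Of 16 tested neutrophil markers 4 were lower (25.0%, against 24.5% of all features) and 2 higher, with a median of -0.03. Their summed signal was between 92600 and 173000 in FR and between 106000 and 269000 in control. Within each of the 4 arrays of pools 2 and 3 this sum was lower in FR than in control. The lectin Clec4d was at -1.51 ± 0.03, and the calprotectin subunits S100a9 at -0.73 ± 0.77 and S100a8 at -0.65 ± 0.74, of which both were stronger in pool 2 (-1.27 and -1.17) than in pool 3 (-0.19 and -0.13). The calls on S100a8 and S100a9 were lost with pool 1 in place of pool 2 (adjusted p = 0.131 and 0.105) by the stricter adjusted p (0.139 and 0.118) and with channels not paired (0.183 and 0.143). Stfa2l1, a stefin of granulocytes, was at 0.83 ± 0.66 (stricter adjusted p = 0.0599, and 0.126 with channels not paired). The count of neutrophil markers lower was 1 with pool 1 in place of pool 2, where 1 was higher, and 7 with pool 1 in place of pool 3. The granule genes Ltf and Ctsg, at 0.06 and 0.10, did not pass, while Lcn2 was called higher (0.33 ± 0.40, limma adjusted p = 0.0337). Csf3r was called lower (-0.41 ± 0.39, limma adjusted p = 0.00582). Lcn2 and Csf3r missed the threshold by the stricter adjusted p (0.253 and 0.145). B cell markers were lower in 12 of 15 (80.0%), T and NK cell markers in 8 of 17 (47.1%) and dendritic cell markers in 6 of 12 (50.0%). With both diets above background the counts were 3 of 6, 2 of 7 and 3 of 7, with 1 dendritic cell marker higher. In the main test the dendritic cell markers lower were Cd74, H2-Aa, H2-Ab1, Ly6d, Ccr7 and Tcf4. Flt3, Zbtb46, Xcr1, Batf3, Bst2 and Ccr9 were not called. How much of the ratios of these 12 genes belongs to other cells was not tested. Erythroid markers were lower in 4 of 21 (19.0%, against 24.5% of all features) and higher in 4. They were lower in 2 or 8 with pool 1 in place of pool 2 or pool 3. Of 7 tested markers of tissue macrophages none passed (1 lower and 1 higher with pool 1 in place of pool 3), with a median of 0.14, and the complement subunit C1qb was at 0.02 ± 0.04. Of 13 endothelial and cardiac markers 2 were lower (15.4%). They were Vwf at -0.93 ± 0.15, which platelets carry too, and Esam at -0.52 ± 0.09 (stricter adjusted p = 0.0573, and 0.234 with channels not paired). With pool 1 in place of pool 3, 4 of this list were lower and 5 higher. How much of each lysozyme ratio belongs to neutrophils was not tested.

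The genes whose ratios over the 6 arrays were closest to the mean of the tested members, by root mean square difference, were the lymphocyte and myeloid surface protein Cd48 (0.09), the nuclear transport GTPase Ran (0.11), the helicase Ddx54 (0.12), the B cell factor Spib (0.12) and Ms4a6b (0.13). Closest to Lyz2 were Cd52 and Ly6d (0.29 each), Plac8 (0.30), Ctss (0.39) and Ms4a1 (0.43). Of these Ctss was at -3.69 in pool 1, -4.10 in pool 2 and -2.85 in pool 3. In the same order Cd52 was at -3.17, -3.28 and -2.58, and Plac8 at -3.25, -3.35 and -2.63. Ly6d was at -3.40, -3.46 and -2.90, and Ms4a1 at -3.59, -3.79 and -3.18. Each was lower in pool 2 than in pool 3, as was Lyz2. The measure covers the size of the ratio on each array and says nothing of shared control.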

How the data were processed

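RNA of pooled mouse blood was measured on 6 two-colour Agilent arrays of 1 design. Per the labels' protocols total RNA was purified on columns and amplified linearly, and per the submitters' processing notes the scans were read with Agilent Feature Extraction 11.0.1.1. The deposited scanner files hold intensity values on a linear scale, as median, background and processed signals. The deposited series table holds log10 values, which matched log10 of red processed signal divided by green on 100% of spots within 0.001, uncentred and with swapped arrays not turned; its column medians for FR in Cy5 and then Cy3 were -0.00938 and -0.0277 (pool 1), 0.0441 and 0.00763 (pool 2) and 0.0520 and -0.0221 (pool 3).

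Median signals were corrected with normexp (offset 50) and loess within arrays, control and outlier spots left out, spots averaged per probe, signs turned to FR over control by the labelled dyes, and the 2 arrays of a pool averaged. Turned arrays correlated at 0.51 or more over all probes. Probes were named by accession through RefSeq (GRCm38.p6), whose build differs from that of the array design, so no gene coordinates are given beyond RefSeq's own upstream windows. The brightest probe stood for a gene. Pools 2 and 3 were tested against 0 in R 4.3.3 by limma 3.58.1 (two-sided, lmFit and trended eBayes), adjusted over 11648 features. The test was also run on simulated ratios whose variance depended on brightness alone, as the fit assumes. That run therefore cannot show whether the p-values are too small for these data. FR and control are paired by the array, not by shared mice. The 2 slides carry both diets on every array. Genes are those of the member list and of 19 other lists. From each of the 19, up to 4 called genes of largest ratio and up to 3 brightest uncalled ones were eligible. Ltf, Ctsg, Lcn2, Csf3r, Ccr7, Tcf4, Flt3, Bst2 and Ccr9 were named after their values were seen. Members, lists and motifs were chosen with earlier results of these data known.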

Additional observations from a re-analysis of the deposited data

How the results depend on the processing

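The series table gave the same values as Agilent's processed signals and is counted with them. The 18 distinct alternatives gave 124 values for the 7 tested genes, of which 118 kept their direction and their side of the threshold, 5 no longer passed and 1 reversed. Lyz2, Lyz1, F13a1 and Tgfbi passed under each of the 18, and Klf4 under the 17 that could be run for it, between -3.46 and -2.62 for Lyz2, -3.08 and -2.47 for Lyz1, -1.83 and -1.39 for F13a1, -1.70 and -1.01 for Tgfbi and -2.55 and -1.02 for Klf4. Csf1r passed under 15 of 18, with adjusted p up to 0.378, and Ms4a6c under 14 of 17, with adjusted p up to 0.136. With FR and control both above background Csf1r reversed to 0.15 because another probe then stood for it. There 4 members were lower, against 18.5% of features, and Klf4 and Ms4a6c could not be tested. In that setting 1765 of 7128 tested features passed, against 3294 of 11648 in the main test. No member was called higher under any alternative (the count stayed at 0). By the stricter adjusted p 1983 features passed, and with no replicate block, ignoring the pairing on arrays, 1121 features and 5 members did; the block is the array and not a shared animal. Leaving out pool 2 or pool 3, each replaced by pool 1, which holds the mice of both, gave 2917 to 5967 features, and 6 to 7 members lower. The number of features called higher moved between 119 without the replicate block and 1747 with pool 3 left out, the cause of which was not tested. With pool 3 left out, the pools fitted share mice 1 to 4, so those p-values are too small. Of 1919 values of the 108 other genes eligible for naming 1845 kept their call, 31 no longer passed, 43 newly passed and 0 reversed. Signals near background limit Ms4a6c, Ms4a6d, Klf4 and Csf1r.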
